A study of Homo sapiens with 6 samples.

Results

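The 10 genes described here encode the transcription factors that drive lysosome genes and the proteins that report the state of the lysosome to them. They are the MiT/TFE factors TFEB, TFE3 and MITF, folliculin (FLCN) with its partners FNIP1 and FNIP2, the Rag GTPases RRAGA, RRAGC and RRAGD, and GPNMB, a membrane glycoprotein encoded by a target gene of these factors. The members were chosen by symbol and matched by Ensembl identifier, and all 10 were found among the 60656 genes of the count table. The cells were the parental form of ZR-75-1, a human line of ER-positive breast cancer, and the labels give no engineered allele for either group. The control group was 3 libraries of cells given DMSO, the drug solvent, and the treated group was 3 libraries of cells given 500 nM abemaciclib, an inhibitor of the cell cycle kinases CDK4 and CDK6, in both cases over 4 days in serum-containing medium. The comparison therefore asks what a single dose of a single CDK4/6 inhibitor did to these mRNAs in a single cell line at a single time. The RB1 knockout libraries of the study were not analysed here.

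MiT/TFE factors bind E-box sequences in the promoters of genes for lysosomal enzymes, the lysosomal proton pump and autophagy. In fed cells the kinase complex mTORC1 phosphorylates TFEB and TFE3 at the lysosome surface, and 14-3-3 proteins then hold them in the cytoplasm. Rag GTPases, held at the lysosome by the Ragulator complex, bring both mTORC1 and these factors there, and folliculin with FNIP1 or FNIP2 stimulates GTP hydrolysis by RRAGC and RRAGD, a step needed for TFEB and TFE3 phosphorylation. Much of this control acts on phosphorylation and location of proteins, which counts of mRNA do not show.

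The libraries held 3317860 to 4013156 counts on genes. Levels are given in CPM, the counts of a gene relative to the TMM-scaled size of its library. Where a library had 0 counts, a level below 0.748 to 0.904 CPM could have been missed through counting error alone. Since the kit reads 3′ ends of polyadenylated RNA, counts do not grow with transcript length, levels can be set side by side between genes, and isoforms that share a 3′ end are not told apart. All 7 luminal epithelial markers were detected in every library and all 3 basal markers (KRT5, KRT14 and TP63) were at 0, as in a luminal line. The summed luminal markers were 6661 to 7275 CPM with DMSO and 7563 to 8640 CPM with abemaciclib. KRT19 was the largest single contributor, with means of 3131 and 4280 CPM. The part of the luminal markers in the results below was not tested. Single luminal markers went both ways, with KRT19 (log2 fold change 0.45) and ESR1 (0.83) called higher, KRT18 (−0.34) called lower and the other 4 not called. In bulk RNA, fewer expressing cells and less RNA per cell cannot be told apart. Of 10863 genes with enough counts for edgeR's quasi-likelihood test, 25.7% passed an adjusted P of 0.05 in either direction, 12.5% higher and 13.3% lower with abemaciclib, and 39.1% had groups that did not overlap.

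Among the 10 members, TFE3 and FNIP1 rose with abemaciclib and FNIP2 fell. Another 5 members (MITF, FLCN, RRAGA, RRAGC and RRAGD) were tested and did not pass, and TFEB and GPNMB had too few counts for the test. So 2 of 8 tested members were called higher and 1 lower, and 3 of 8 had groups that did not overlap, beside the shares of 12.5%, 13.3% and 39.1% over all genes. These shares are near the background, and no result about the set as a whole is read from them. The median log2 fold change of the tested members was 0.31 and that of all genes tested was 0.00, with 6 of 8 members positive.

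The promoters are shown first because the E-box is the sequence through which MiT/TFE factors act on their targets, several of these members included. Promoters of RefSeq on GRCh38.p14, from 250 bases before to 50 bases after each start, were at hand for 8 of the members. They were searched on both strands for CACGTG, the E-box core, for the longer TCACGTGA that contains it, and for the M-box first described in pigment cell genes. The M-box was written as TCATGTGA, which reads as TCACATGA on the opposite strand, and its inner 6 letters were also searched alone. Of 35116 promoters, 7.26% held the core E-box, 0.98% the longer E-box, 11.1% the inner letters of the M-box and 1% the whole M-box. FNIP1 and RRAGC held the core E-box, FNIP2 and GPNMB held the M-box, and the windows of TFEB, TFE3, MITF and FLCN held none of these letters. A match is a description of the sequence and not a binding site. Each window below is 60 bases long, read 5′ to 3′ on the strand of the gene, with the motif in capitals.
FNIP1, chr5:131797160-131797219, minus strand, motif 175 bases before the start: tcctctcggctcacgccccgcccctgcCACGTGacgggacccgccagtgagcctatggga
FNIP1, chr5:131797079-131797138, minus strand, motif 94 bases before the start: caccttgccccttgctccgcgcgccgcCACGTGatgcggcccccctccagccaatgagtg
RRAGC, chr1:38859852-38859911, minus strand, motif 112 bases before the start: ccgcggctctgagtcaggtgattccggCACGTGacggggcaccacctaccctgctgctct
FNIP2, chr4:158805670-158805729, plus strand, motif 143 bases before a start that lies inside the gene: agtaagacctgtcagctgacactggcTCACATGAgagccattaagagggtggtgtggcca
GPNMB, chr7:23246686-23246745, plus strand, motif 63 bases before a start that lies inside the gene as GENCODE draws it: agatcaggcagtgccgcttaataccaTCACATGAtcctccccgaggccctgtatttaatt
RRAGB, chrX:55717697-55717756, plus strand, motif 26 bases before the start: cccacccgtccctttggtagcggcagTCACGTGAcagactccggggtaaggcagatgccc
RRAGB is no member and is shown as the close relative of RRAGA that is described further on. Its promoter held the core E-box again 115 bases before the start and 8 bases after it, in windows not printed here. Of the 2 RefSeq promoters of FNIP2, only the internal one held the M-box. The letters are given without regard to how the genes moved, and no relation between them and the changes was tested.

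**Figure D1:**
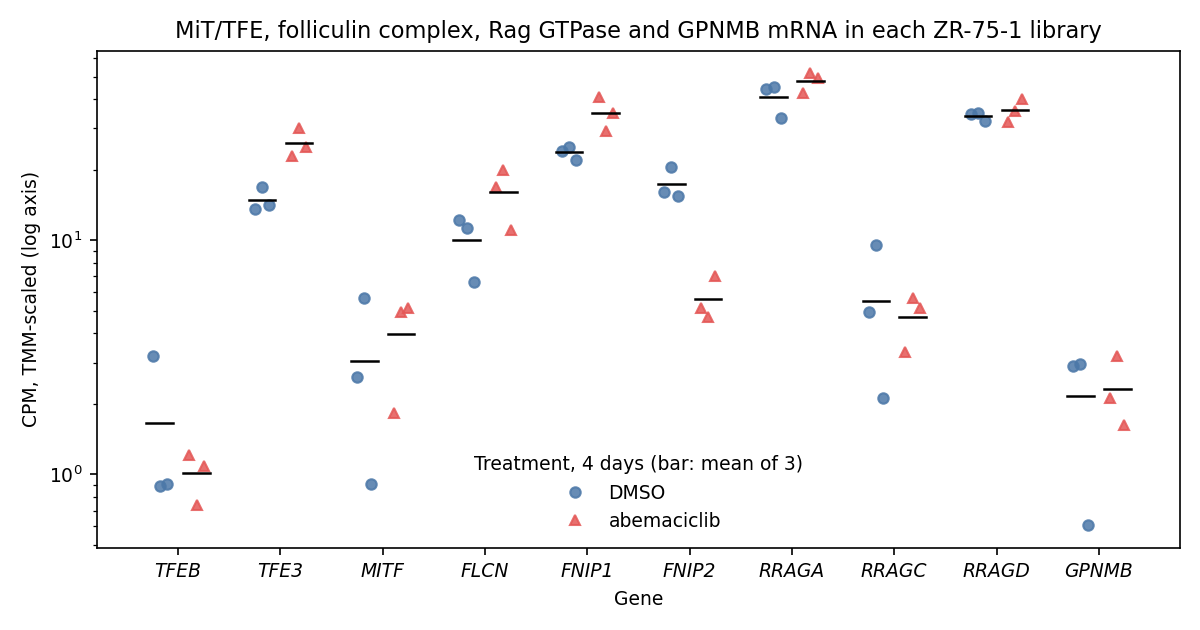
Levels of the 10 members in each library, in TMM-scaled CPM on a log axis, with blue circles for DMSO, red triangles for abemaciclib and a bar at the mean of 3 libraries. The triangles of TFE3 (23 to 30.1 CPM) and FNIP1 (29.4 to 40.8 CPM) lie above all circles of the same gene, those of FNIP2 (4.69 to 7.03 CPM) lie below, and the groups of the other members overlap.

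The plot of levels by library shows the order of the members. With DMSO, mean levels were highest for RRAGA (40.8 CPM) and RRAGD (34.0 CPM), followed by FNIP1, FNIP2, TFE3, FLCN, RRAGC, MITF, GPNMB and TFEB. The libraries of RRAGD, FNIP1 and FNIP2 did not overlap with each other, and neither did those of TFE3 and FLCN. All other neighbours in that order overlapped, from RRAGA and RRAGD at the top to GPNMB and TFEB at the bottom. With abemaciclib, TFE3 and FLCN stood above FNIP2, which had moved from the fourth to the sixth place, and the libraries of FLCN (11.1 to 20 CPM) did not overlap with those of FNIP2 (4.69 to 7.03 CPM). RRAGA remained the most abundant member and TFEB the least abundant.

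Among the transcription factors, TFE3 was the most abundant and the one called changed. TFE3 (ENSG00000068323.17, GRCh38 chrX:49028726-49043410, minus strand, protein coding) encodes a factor that moves to the nucleus on starvation much as TFEB does. It had 47, 57 and 47 counts with DMSO and 76, 122 and 93 counts with abemaciclib. Every treated library was above every control library. The mean level went from 14.9 ± 1.76 CPM (SD, n = 3) to 26.1 ± 3.65 CPM (SD, n = 3), or 0.81 as a log2 fold change (SE 0.22, 95% interval 0.35 to 1.26, 1.75-fold; edgeR's quasi-likelihood test, adjusted P = 0.0074). Without abemaciclib replicate 2, the highest library, the log2 fold change was 0.69 with an adjusted P of 0.0516.

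TFEB (ENSG00000112561.18, chr6:41683978-41736259, minus strand), the best-known regulator of lysosome genes, was close to the floor of these libraries. Its counts were 11, 3 and 3 with DMSO and 4, 3 and 4 with abemaciclib. DMSO replicate 1 alone stood above the rest, and the groups overlapped. Summed over libraries this was 17 counts against 11, a ratio of abemaciclib to DMSO of 0.592 once scaled, with a 95% counting interval of 0.251 to 1.34. That interval covers counting error only and leaves out the spread between libraries. The fit without the filter on low counts includes that spread. It gave a log2 fold change of −0.71 (95% interval −2.66 to 1.24). A change within these wider bounds was not detectable in these libraries.

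MITF (ENSG00000187098.16, chr3:69739456-69968336, plus strand), the factor of melanocytes and their pigment genes, had 9, 19 and 3 counts with DMSO and 6, 20 and 19 with abemaciclib. Low and high libraries occurred in both groups. The log2 fold change was 0.39 (SE 0.57, 95% interval −0.78 to 1.56; edgeR's quasi-likelihood test, adjusted P = 0.681), and without DMSO replicate 3 it was −0.04. Of 15 coding transcripts of MITF in the annotation, 5 shared the commonest 3′ end, so its counts add up several ends. TFEC, the remaining member of this family, had 0, 1 and 1 counts with DMSO and 0 in all 3 treated libraries, under the floor of 3 counts.

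TFE3 accordingly made up most of the counts of its family. It took 70.1%, 71.2% and 87% of the summed TFEB, TFE3, MITF and TFEC counts in DMSO replicates 1 to 3, and 88.4%, 84.1% and 80.2% in abemaciclib replicates 1 to 3. The groups overlapped, and the exact 95% binomial interval of a library was as wide as 57.7% to 80.7% in DMSO replicate 1. Thus TFE3 rose as a level while no separation of its share in the family was seen.

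In the folliculin complex, the adaptors changed in opposite directions. FNIP2 (ENSG00000052795.13, chr4:158769026-158908050, plus strand), an adaptor that binds folliculin, had 55, 69 and 51 counts with DMSO and 17, 19 and 26 counts with abemaciclib. All treated libraries lay far below all controls. Its mean level went from 17.3 ± 2.78 CPM to 5.62 ± 1.24 CPM (SD, n = 3 each), which gave a log2 fold change of −1.62 (SE 0.31, 95% interval −2.25 to −0.99; edgeR's quasi-likelihood test, adjusted P = 0.000207), 3.07-fold lower. Leaving out any single library gave values of −1.81 to −1.48, each past the threshold.

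FNIP1 (ENSG00000217128.12, chr5:131641714-131797017, minus strand), its paralogue with the same role, moved the other way. It had 83, 84 and 73 counts with DMSO and 135, 119 and 129 with abemaciclib, with no overlap. The mean level was 23.7 ± 1.45 CPM and then 35 ± 5.74 CPM (SD, n = 3 each), which gave a log2 fold change of 0.56 (SE 0.19, 95% interval 0.16 to 0.95, 1.47-fold; edgeR's quasi-likelihood test, adjusted P = 0.0318). The call was close to the threshold: the adjusted P was 0.0723, 0.0668 and 0.0938 without DMSO replicate 1, 2 or 3 and 0.148 without abemaciclib replicate 1.

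The balance of both adaptors was therefore followed within each library. There were 1.51, 1.22 and 1.43 FNIP1 counts per FNIP2 count with DMSO, and 7.94, 6.26 and 4.96 with abemaciclib. The geometric mean ratio rose from 1.38 to 6.27, a log2 difference of 2.18, and the groups did not overlap. An exact two-sided permutation test gave P = 0.1, the smallest value that 3 against 3 libraries allow, and the ratio was formed after the values of both genes were seen. As a share, FNIP2 made up 39.9%, 45.1% and 41.1% of the FNIP1 and FNIP2 counts with DMSO and 11.2%, 13.8% and 16.8% with abemaciclib. The lowest bound of an exact 95% interval with DMSO was 31.6% and the highest with abemaciclib was 23.6%, so the separation was larger than counting error.

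FLCN (ENSG00000154803.13, chr17:17212212-17237188, minus strand), the tumour suppressor of Birt-Hogg-Dubé syndrome and the partner of both FNIP proteins, had 42, 38 and 22 counts with DMSO and 56, 81 and 41 with abemaciclib. Abemaciclib replicate 3, the lowest treated library (11.1 CPM), lay below DMSO replicate 1 (12.2 CPM) and DMSO replicate 2 (11.3 CPM). The log2 fold change was 0.67 (SE 0.30, 95% interval 0.06 to 1.28), and it was not called by edgeR's quasi-likelihood test (adjusted P = 0.101). Without abemaciclib replicate 3 it was 0.88 with an adjusted P of 0.0249.

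**Figure D2:**
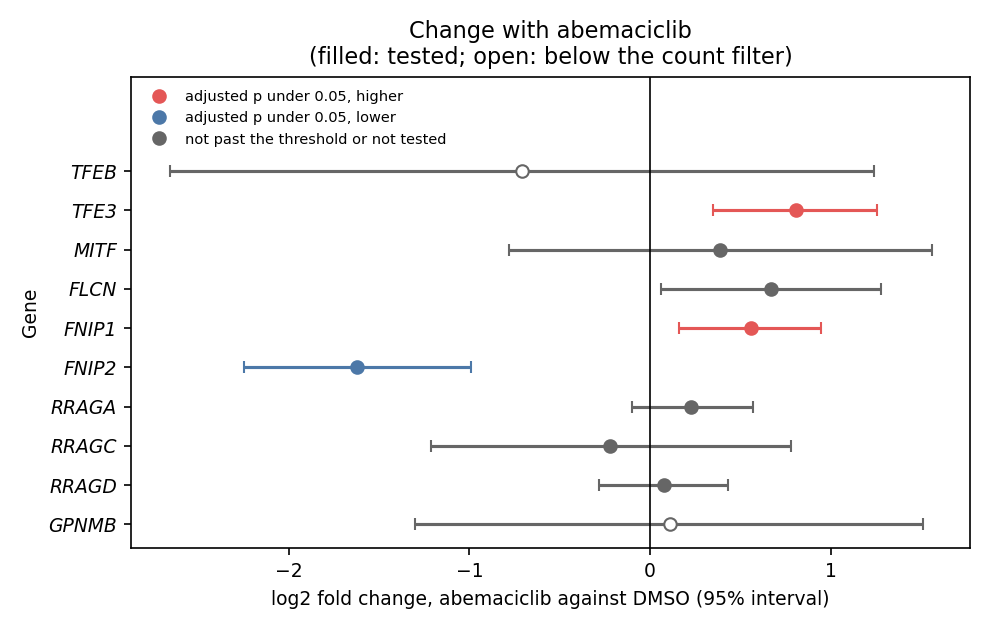
Log2 fold change of each member, abemaciclib against DMSO, with its 95% interval; red marks higher and blue lower at an adjusted P under 0.05, grey marks no call, and open circles (TFEB and GPNMB) come from a fit without the filter on low counts. FNIP2 stands alone on the left at −1.62, TFE3 (0.81) and FNIP1 (0.56) on the right, and the widest intervals belong to the members with the fewest counts.

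None of the 3 Rag GTPases among the members passed the test. RRAGA (ENSG00000155876.6, chr9:19049427-19051025, plus strand) encodes RagA, which pairs with RagC or RagD and in its GTP-bound form recruits mTORC1. It had 152, 151 and 110 counts with DMSO and 141, 209 and 183 with abemaciclib. The groups overlapped, and the log2 fold change was 0.23 (95% interval −0.10 to 0.57; edgeR's quasi-likelihood test, adjusted P = 0.327).

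RRAGD (ENSG00000025039.15, chr6:89364616-89412273, minus strand) encodes RagD and is a known target gene of MiT/TFE factors. Its counts were 119, 118 and 107 with DMSO and 106, 144 and 148 with abemaciclib. The controls lay within the spread of the treated libraries in CPM, and the log2 fold change was 0.08 (95% interval −0.28 to 0.43; edgeR's quasi-likelihood test, adjusted P = 0.794). A rise as large as that of TFE3 (0.81) lies outside this interval.

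RRAGC (ENSG00000116954.8, chr1:38838198-38859772, minus strand), which encodes RagC, was measured less precisely. It had 17, 32 and 7 counts with DMSO and 11, 23 and 19 with abemaciclib, so the control libraries spanned the treated ones. The log2 fold change was −0.22 (95% interval −1.21 to 0.78; edgeR's quasi-likelihood test, adjusted P = 0.796), and without DMSO replicate 2 it was 0.42. RRAGD was more abundant than RRAGC in every library, with 32.1 to 40 CPM against 2.12 to 9.51 CPM.

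RRAGB encodes RagB, the close relative of RagA, and stood outside the rule that chose the members. It had 9, 5 and 5 counts with DMSO and 32, 21 and 24 with abemaciclib, without overlap. The log2 fold change was 1.89 (SE 0.50, 95% interval 0.86 to 2.93, 3.72-fold, adjusted P = 0.00579 by edgeR's quasi-likelihood test). RRAGB passed the filter on low counts through its treated libraries alone. Neither that call nor the share and ratio below are therefore used as support. RRAGB made up 5.59%, 3.21% and 4.35% of the RRAGA and RRAGB counts with DMSO and 18.5%, 9.13% and 11.6% with abemaciclib. RRAGA remained the more abundant of the pair in every library. The number of RRAGA counts per RRAGB count had a geometric mean of 22.4 with DMSO and 6.94 with abemaciclib (exact two-sided permutation test, P = 0.1, the smallest possible), also formed after the values were seen. Benjamini–Hochberg adjustment over the 2 ratios computed, this ratio and that of FNIP1 to FNIP2, leaves both at 0.1.

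**Figure D3:**
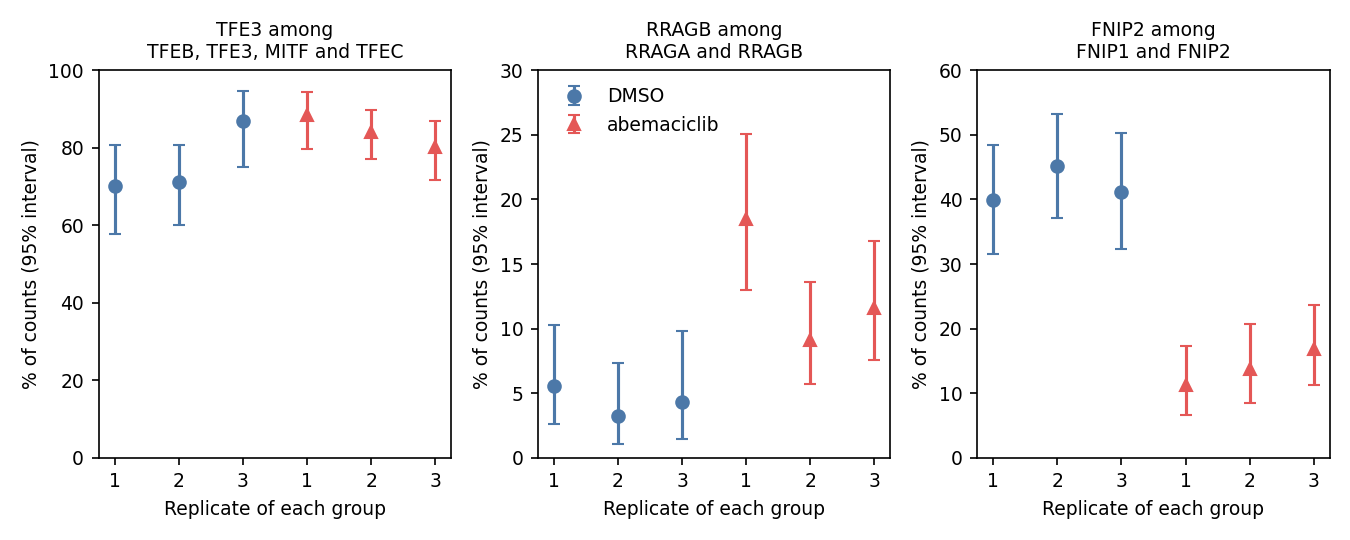
Share of counts, in percent, taken in each library by TFE3 within its family (left), by RRAGB among RRAGA and RRAGB (middle) and by FNIP2 among FNIP1 and FNIP2 (right), with exact 95% binomial intervals that cover counting error only; the vertical scales differ between panels. DMSO (blue) and abemaciclib (red) overlap on the left, separate in the middle (3.21% to 5.59% against 9.13% to 18.5%) and are farthest apart on the right (39.9% to 45.1% against 11.2% to 16.8%).

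GPNMB (ENSG00000136235.17, chr7:23235967-23275108, plus strand), which is abundant in melanocytes and macrophages and is a sensitive target of TFE3 in cells that lack folliculin, was near the floor. It had 10, 10 and 2 counts with DMSO and 7, 13 and 6 with abemaciclib. The groups overlapped. The sums of 22 and 26 counts gave a scaled ratio of 1.08 with a 95% counting interval of 0.589 to 2, which leaves out the spread between libraries. With that spread, the fit without the filter on low counts gave a log2 fold change of 0.11 (95% interval −1.30 to 1.51). The inner letters of the M-box, CACATG, occurred again 123 bases before the same internal start. The melanocyte markers TYR, DCT and MLANA were at 0 in all libraries, as were PTPRC, CD14, CSF1R and TYROBP of macrophages. Of the others, PMEL had 1 to 7 counts in every library, TYRP1 had 1 count in DMSO replicate 1 alone, and FCER1G had 0 to 8 counts. All 5 melanocyte markers summed to 0.303 to 1.16 CPM with DMSO and 0.54 to 1.73 CPM with abemaciclib, and the 5 macrophage markers to at most 0.891 and 2.16 CPM. Of 5 fibroblast markers, COL1A2, COL3A1 and PDGFRB were at 0, with sums of 10.4 to 15.8 CPM and 10.4 to 15.7 CPM. COL1A1, detected in every library at a mean of 12.8 CPM, carried nearly all of these sums.

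The members past the threshold were then set beside all genes with a mean of at least 5 CPM (9739 genes) by the Pearson r of their log2(CPM + 1) over the 6 libraries. TFE3 was most like OTUD3 (r = 0.9920), FNIP1 most like TMEM54 (r = 0.9961) and FNIP2 most like TNFAIP8 (r = 0.9962). These values are a description over 6 points in 2 groups that share their libraries, the best of many genes in each case.

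The other genes of the pathway were taken from 5 lists and are given as counts in each direction, by the same test and over the same genes. All 5 lists were chosen with earlier results of these data known, so their counts are descriptions and not independent evidence. Among 7 partners of the members at the lysosome surface (RRAGB, the Ragulator subunits LAMTOR1 to LAMTOR5, and SLC38A9), 6 were tested, 4 rose and 0 fell, with a median log2 fold change of 0.40 beside 0.00 for all genes. The shares called over all genes were 12.5% higher and 13.3% lower. At an unadjusted p under 0.05 the counts were 5 and 0, and with DESeq2 4 and 0. The count rests partly on RRAGB, and with at least 10 counts required in every library, which leaves RRAGB out, 3 rose and the median was 0.36. LAMTOR3 had 46, 49 and 42 counts with DMSO and 78, 92 and 98 with abemaciclib (log2 fold change 0.84, SE 0.23; edgeR's quasi-likelihood test, adjusted P = 0.00612). LAMTOR2 rose by 0.43 on the log2 scale (SE 0.12; edgeR, adjusted P = 0.0071). LAMTOR1, the subunit that anchors the complex in the membrane, also rose (0.37, SE 0.09, adjusted P = 0.0042) and was named after its value was seen. SLC38A9, a lysosomal amino acid transporter, had too few counts for the test. LAMTOR4 (0.05) and LAMTOR5 (0.30) did not pass, like the 3 Rag members.

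The amino acid branch lies upstream of the Rag GTPases. Of 18 genes of GATOR1, GATOR2, KICSTOR and the amino acid sensors, all tested, 2 rose and 2 fell, with a median of 0.17 (unadjusted 4 and 4; DESeq2 2 and 2). These counts are no larger a share than the 12.5% higher and 13.3% lower of all genes, and nothing is read from them about the branch. CASTOR1, the cytosolic arginine sensor, rose by 1.47 (SE 0.34, adjusted P = 0.00165 by edgeR), though its 3′ end overlaps another gene on the same strand and its counts are uncertain. WDR24, a GATOR2 subunit, rose by 0.75 (SE 0.20, adjusted P = 0.00546). SESN2, a leucine sensor that binds GATOR2, had 362, 442 and 359 counts with DMSO and 243, 337 and 274 with abemaciclib (log2 fold change −0.58, SE 0.12, adjusted P = 0.000805 by edgeR). The other lower call was its relative SESN1, named after its value was seen, with 13, 21 and 20 counts with DMSO and 8, 7 and 3 with abemaciclib. SESN1 passed the filter on low counts through its DMSO libraries alone, so that call is not used as support.

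The kinase itself did not move past the threshold. Of 9 genes of mTORC1 and the TSC-RHEB module that switches it, 0 rose and 0 fell by edgeR's quasi-likelihood test, with a median of −0.05. Over all genes, 12.5% were called higher and 13.3% lower. DESeq2 also called 0, and 0 higher and 1 lower passed an unadjusted p of 0.05. Their log2 fold changes were between −0.50 and 0.68.

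Of 17 genes whose products modify or hold TFEB (calcineurin subunits, kinases, the exportin XPO1, 14-3-3 proteins and others), 1 rose and 3 fell, with a median of −0.10 (unadjusted 1 and 5; DESeq2 1 and 3). Over all genes, 12.5% were called higher and 13.3% lower, and nothing is read from these counts about the list as a whole. All 4 calls were 14-3-3 proteins, which bind phosphorylated TFEB and TFE3 among many other clients. YWHAH had 241, 279 and 207 counts with DMSO and 111, 150 and 167 with abemaciclib (log2 fold change −0.89, SE 0.16, adjusted P = 7.09e-05 by edgeR). YWHAQ fell by 0.57 (SE 0.16, adjusted P = 0.0102), a call lost without DMSO replicate 3, abemaciclib replicate 1 or abemaciclib replicate 2 (log2 fold changes −0.51, −0.45 and −0.50). YWHAE, named after its value was seen, fell by 0.36 (adjusted P = 0.0202), although its libraries overlapped. YWHAG rose by 0.43 (SE 0.11, adjusted P = 0.00515). So the 14-3-3 mRNAs did not move in a single direction.

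Most target genes of the factors rose. Of 32 genes described as MiT/TFE targets (lysosomal hydrolases, membrane proteins, proton pump subunits and autophagy genes), 29 were tested, 19 rose and 0 fell, with a median log2 fold change of 0.62 beside 0.00 for all genes, and 28 of the 29 were positive. At an unadjusted p under 0.05 the counts were 20 and 0, and with DESeq2 18 and 0. The background is 12.5% called higher. That lysosome genes rose in these libraries was known when the list was written, so the count is a description and not independent evidence. CTSD, the protease cathepsin D and also an oestrogen-responsive gene in breast cancer cells, had 2095, 2348 and 2525 counts with DMSO and 7756, 7958 and 6791 with abemaciclib (log2 fold change 1.57, SE 0.10, adjusted P = 8.03e-13 by edgeR). Its 3′ end overlaps another gene on the same strand, so its counts are uncertain. WIPI1, a phosphoinositide-binding protein of early autophagosomes, had 26, 49 and 29 counts and then 107, 102 and 129 (log2 fold change 1.58, SE 0.25, adjusted P = 1.93e-05 by edgeR), and its 3′ end overlaps ARSG on the opposite strand. GABARAP and PPARGC1A were among those with too few counts for the test. The 3′ end of GABARAP overlaps another gene on the same strand, so its counts are uncertain too. Of the 22 promoters found for 18 genes of the list, 54.5% held the core E-box and 31.8% the longer E-box, against 7.26% and 0.98% of all promoters. The inner letters of the M-box were in 18.2% and the whole M-box in 4.55%. The list was drawn from genes known as targets, partly because of such sequences, so these shares describe the list.

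**Figure D4:**
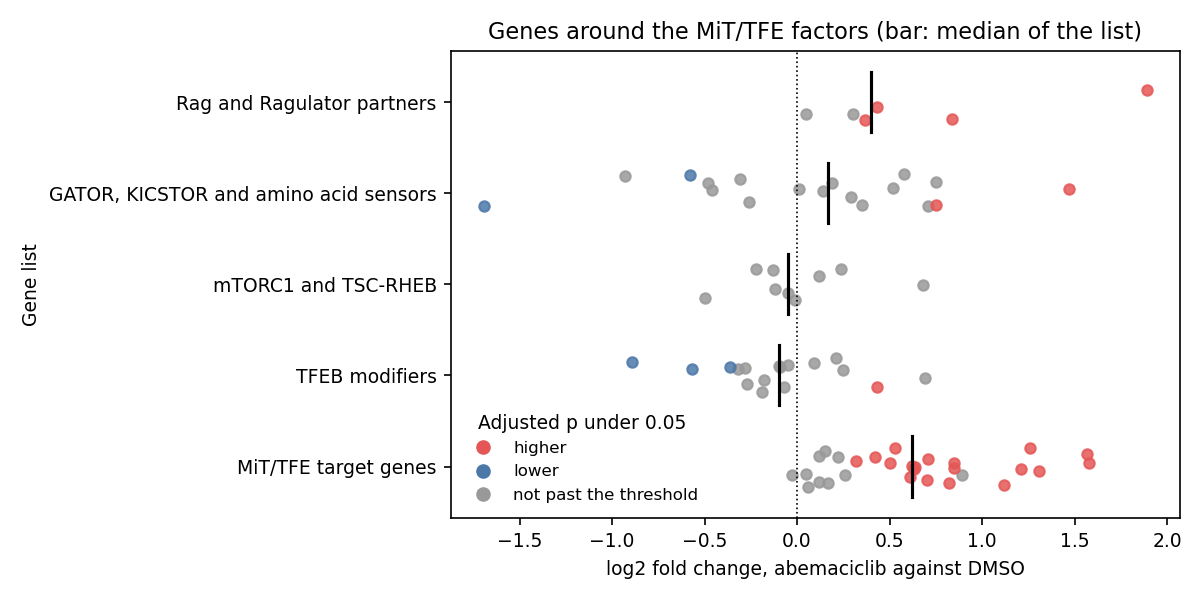
Log2 fold change of every tested gene in the 5 lists, abemaciclib against DMSO, a point for each gene and a bar at the median, coloured red for higher, blue for lower and grey for no call at an adjusted P under 0.05. The target genes are shifted to the right (median 0.62, 19 higher and 0 lower), the partners of the Rag GTPases less so (0.40), and the other lists are centred near 0 with medians of 0.17, −0.05 and −0.10.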

How the data were processed

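RNA-seq was performed on 6 libraries, 3 with DMSO and 3 with abemaciclib, grouped by the treatment given in the labels. Per the labels and the study's methods, the authors prepared 3′ mRNA libraries and used BBDuk for trimming single-end reads, STAR 2.7.5b for alignment to hg38 and featureCounts 2.0.1 with a GENCODE annotation for counting. Whether the counting used strand is not given in the sources used here. The deposited values are raw counts, with no normalization or filter. The study calls its replicates independent and biological.

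Counts were compared with edgeR 4.0.16 under R 4.3.3 (filterByExpr, TMM scaling, glmQLFit and glmQLFTest) and Benjamini–Hochberg adjustment over 10863 genes at 0.05. Each SE is the log2 fold change over the root of its F statistic. Symbols, coordinates and 3′ overlaps (within 1000 bases) came from a later GENCODE release on GRCh38, and promoters from RefSeq. DESeq2 1.42.0, its size factors, total counts alone, no filter, at least 10 counts in every library, a replicate block and each library left out were the alternatives. The fit was tested on simulated data.

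The members and lists were chosen with earlier results of these data known. Genes named were the members, TFEC and RRAGB, in each list up to 2 with the largest rise and 2 with the largest fall past the threshold at a mean of at least 5 CPM, and for each called member the gene with the highest r. Others are said to have been named later.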

Additional observations from a re-analysis of the deposited data

How the results depend on the processing

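Of the members, FNIP2 passed the threshold under all alternatives run, and TFE3 under all except the omission of abemaciclib replicate 2. The replicate numbers did not pair the libraries: same-numbered libraries deviated together with correlations of −0.09 to 0.01, and in 1 of 3 numbers was this the highest correlation. With the replicate block, 1 member rose in place of 2, since FNIP1 had an adjusted P of 0.0526 (log2 fold change 0.55). With each library left out in turn, 1 to 3 members rose and 1 fell. In the same runs, the genes that fell numbered 1 to 3 in the list of GATOR, KICSTOR and amino acid sensors and 1 to 5 among the TFEB modifiers, and 0 to 1 gene of mTORC1 and TSC-RHEB rose. Without abemaciclib replicate 3, 3 members rose, 5 TFEB modifiers fell and 1 gene fell in the list of GATOR, KICSTOR and amino acid sensors. Over all genes that omission gave 1412 higher and 1529 lower, above the main fit, while each other omission gave fewer than the main fit. The causes of these moves were not tested. The sign of members that were not called turned in such runs, with ranges of −0.04 to 1.16 for MITF, −0.60 to 0.42 for RRAGC and −0.00 to 0.15 for RRAGD. Over all genes, 1354 rose and 1442 fell, against 1216 and 1305 with DESeq2, 1266 and 1506 with total counts alone, and 1139 and 1280 with the replicate block. No other count of calls moved by over 1.5 times. TFEB, GPNMB, MITF and RRAGC held 2 to 32 counts in each library and varied between libraries of the same group. The parts of depth and of this spread in their wide intervals were not tested.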
